A study of Mus musculus with 10 samples.

Results

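The hypoxia-inducible factors are transcription factors that join an oxygen-regulated α subunit to the constant partner ARNT. Hif1a encodes HIF-1α, Epas1 encodes HIF-2α and Arnt encodes their partner. In the presence of oxygen the prolyl hydroxylases encoded by Egln1 and Egln3 mark the α subunits for destruction, so that HIF activity is set largely at the protein level, which transcript arrays do not read. HIF dimers switch on genes of vessel growth, glucose uptake and mitochondrial turnover. In liver, where oxygen falls along the lobule from the portal to the central vein, HIF-2α is also known for its effect on lipid storage in mice. The 10 genes described here are these 3 subunits, both hydroxylases and 5 genes induced by low oxygen: Vegfa, Bnip3, Ankrd37, Ndrg1 and Slc2a1. They were chosen by name, and all 10 of 10 were measured among the 19938 genes that could be tested. A gene was read through the array feature that carries its symbol alone, with the highest mean over the 10 arrays where there were several.

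The livers came from male C57BL/6J mice that were 8 weeks old when an adenovirus was injected into the tail vein and were studied fed, 3 weeks later. Phf2 mice (n = 5) received a virus encoding the histone demethylase Phf2. GFP mice (n = 5), the controls, received a virus encoding green fluorescent protein, so both groups carried adenovirus. RNA of the whole liver of each mouse was hybridised to 1 Affymetrix Gene ST array, and values are log2 RMA signals (background-corrected, scaled between arrays and summarised per feature by the authors). No source used here names the promoter of the adenovirus, and the methods state that mice without overexpression were taken out of the cohort.

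The feature of Phf2 read 6.27 to 6.58 on the Phf2 arrays, against 6.32 to 6.54 on the GFP arrays (adjusted p = 0.751 from limma), so this feature, which may or may not match the viral transcript, does not check the labels. Array medians lay between 5.06 and 5.18. Hepatocyte markers were high on every array (list mean 12.09 to 12.40 in Phf2 livers, against 12.43 to 12.55 in GFP livers). Of these 6 markers 3 were lower in Phf2 livers, where 4.24% of all genes were called lower. Pancreatic acinar markers varied more than any other list examined, from 5.88 to 10.73 on the Phf2 arrays and from 6.17 to 12.29 on the GFP arrays, with GFP replicate 1 the highest. None of the 6 acinar markers measured passed the test (0 by limma, by the methods' t-test and at an unadjusted p of 0.05). The acinar level is therefore given where it moved with a result.

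Promoters are shown first, because HIF dimers bind a short core, ACGTG or GCGTG, and the members that carry most copies of it did not all change. Promoter sequences from RefSeq (GRCm38.p6) were matched by symbol for 8 of the 10 genes, not for Epas1 and Ndrg1. The window is the 250 bases before the transcription start, and matches on both strands are in capitals, so that CACGT and CACGC are the cores read on the other strand. Ankrd37, which was higher in Phf2 livers, held 4 matches, of which a pair overlaps (chr8:45999851-46000100, minus strand). Bnip3, which did not pass the test, held 5, with 1 overlapping pair that spells CACGTG (chr7:138909507-138909756, minus strand). Hif1a held 3, again with a CACGTG (chr12:73907617-73907866, plus strand).
Ankrd37: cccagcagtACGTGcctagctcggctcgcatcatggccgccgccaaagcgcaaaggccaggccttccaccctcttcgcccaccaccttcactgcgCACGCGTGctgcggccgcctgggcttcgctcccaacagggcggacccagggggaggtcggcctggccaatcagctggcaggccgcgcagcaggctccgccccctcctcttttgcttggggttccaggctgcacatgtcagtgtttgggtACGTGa
Bnip3: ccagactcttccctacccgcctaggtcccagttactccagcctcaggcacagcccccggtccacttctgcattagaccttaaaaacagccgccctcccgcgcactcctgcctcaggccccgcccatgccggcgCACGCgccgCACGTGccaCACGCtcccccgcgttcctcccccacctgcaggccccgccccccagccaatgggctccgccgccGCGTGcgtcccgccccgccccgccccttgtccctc
Hif1a: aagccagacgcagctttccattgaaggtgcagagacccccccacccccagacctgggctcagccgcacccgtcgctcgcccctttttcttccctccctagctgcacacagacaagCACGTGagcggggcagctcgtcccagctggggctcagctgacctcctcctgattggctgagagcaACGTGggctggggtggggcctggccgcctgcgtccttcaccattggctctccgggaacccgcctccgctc

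Of the 9 promoters of these 8 genes (Vegfa has 2), 8 held at least 1 core and 6 held at least 2, the exception being the first Vegfa start. The second Vegfa window (chr17:46025164-46025413, minus strand) lies downstream of the first start, so its 2 matches are not upstream of that start. The counts of 8 and 6 include this window. Over the 19177 promoters of genes tested on the arrays, 46.2% held at least 1 core and 21.4% at least 2, and over all 32851 RefSeq promoters given here 38.6% held 1. The median GC content of member promoters was 66.4%, against 56.8% for the promoters of genes tested, and each core contains a CG step. A match is a stretch of letters and not a binding site, and regions outside these windows were not searched.

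**Figure D1:**
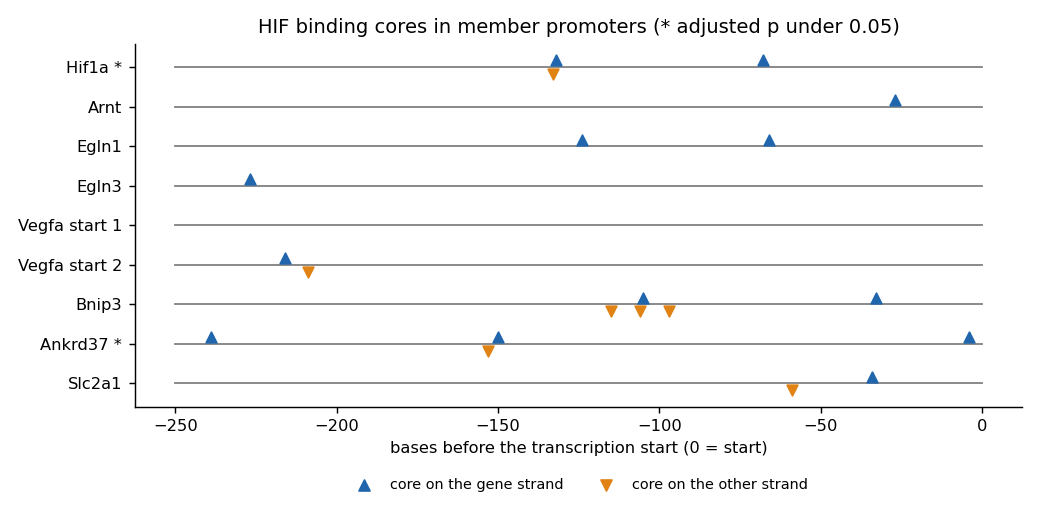
Positions of the HIF binding cores ACGTG and GCGTG in the 250 bases before the transcription start of 8 genes (horizontal axis, bases from the start). Upward triangles are cores on the strand of the gene and downward triangles cores on the other strand, asterisks mark Hif1a and Ankrd37, which were higher in Phf2 livers, and Bnip3, with 5 matches, did not pass the test.

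Of the 10 genes, 4 were higher in Phf2 livers, namely Hif1a, Epas1, Ankrd37 and Ndrg1, and 6 did not pass an adjusted p of 0.05 from limma. Over all genes tested, 5.43% were called higher and 4.24% lower. None of the 10 was called lower, with 1, Vegfa, below an unadjusted p of 0.05, and the methods' t-test called the same number higher and lower. All 5 Phf2 livers lay above all 5 GFP livers for 2 of the 10, Epas1 and Ndrg1, and below them for 0, where 4.71% and 4.36% of all genes lay wholly above or below. The median log2 fold change of the 10 was 0.08, against -0.01 for all genes. Since the genes were named with earlier results in view, these counts describe them and are not a test of the group. RNA of a whole liver does not tell fewer cells of a type from less RNA per cell.

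**Figure D2:**
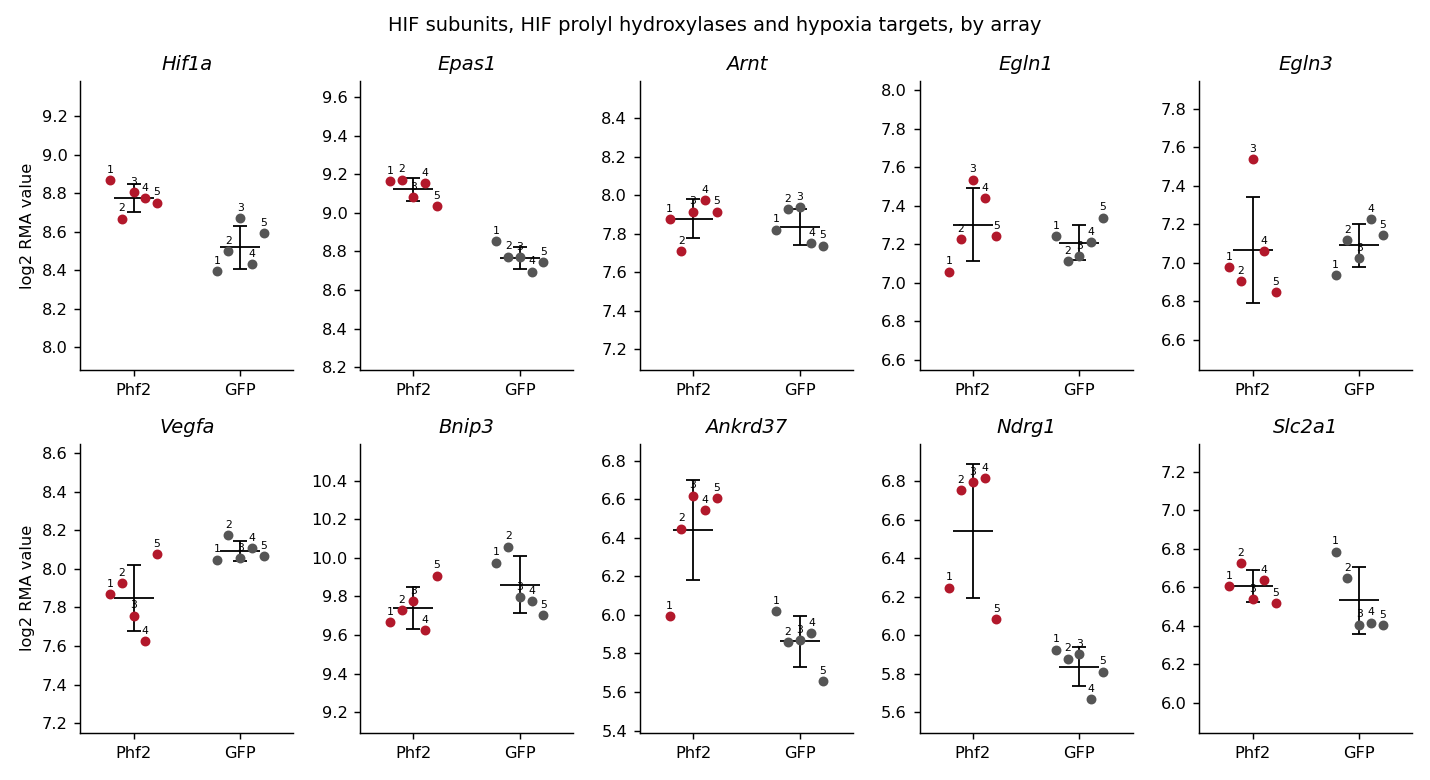
Log2 RMA value (vertical axis, each panel spanning the same range of 1.5) of the 10 genes on the 5 Phf2 arrays (red) and 5 GFP arrays (grey), numbered by replicate, with the mean (line) and SD (bar). Epas1 and Ndrg1 do not overlap between groups, whereas in Ankrd37 Phf2 replicate 1 (5.99) lies among the GFP arrays and in Vegfa Phf2 replicate 5 (8.08) does.

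Of the α subunits, Epas1 and Hif1a were higher in Phf2 livers, and Hif3a, which encodes HIF-3α and is counted with the partners in oxygen sensing, did not pass (log2 fold change -0.11, adjusted p = 0.443). Hif3a had a low signal, with means of 3.92 in Phf2 livers and 4.03 in GFP livers. Epas1 (feature 10447317) read 9.16, 9.17, 9.08, 9.16 and 9.03 in Phf2 replicates 1 to 5, against 8.85, 8.77, 8.77, 8.70 and 8.75 in GFP replicates 1 to 5. Its groups were tight and separate, with means of 9.12 ± 0.06 in Phf2 livers and 8.77 ± 0.06 in GFP livers (SD, n = 5 each). Epas1 was 1.28-fold higher, or 0.35 on the log2 scale (95% interval 0.23 to 0.48, adjusted p = 0.00187), and an exact two-sided permutation test gave p = 0.00794, the smallest that 5 against 5 arrays allow. Its adjusted p ran from 0.00110 to 0.0137 over 20 refits, with other choices of processing or 1 array left out, and passed in each. Epas1 is known from endothelial cells as well as hepatocytes. Of 8 markers of sinusoidal endothelial cells 1 was higher, the hyaluronan receptor Lyve1 (log2 fold change 0.51, adjusted p = 0.0211), and 7 did not pass. A share of 5.43% of all genes was called higher. The mean of that list was 7.10 to 7.36 on the Phf2 arrays, against 7.13 to 7.27 on the GFP arrays, and the part of these cells in the Epas1 difference was not tested.

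Hif1a (feature 10396421) read 8.87, 8.67, 8.80, 8.77 and 8.75 in Phf2 replicates 1 to 5, against 8.40, 8.50, 8.67, 8.43 and 8.59 in GFP replicates 1 to 5. The groups met at a single point, where Phf2 replicate 2 was level with GFP replicate 3. Hif1a was 1.19-fold higher, or 0.25 on the log2 scale (95% interval 0.11 to 0.40, adjusted p = 0.0338) (exact two-sided permutation test, p = 0.0159). This call was less stable than that of Epas1, since the adjusted p ran from 0.0174 to 0.0863 and missed 0.05 in 9 of 20 refits. These were the refits with median centring (0.0718), all features (0.0606) and a block for replicate number (0.0863), those without GFP replicates 1 (0.0861), 2 (0.0664) and 4 (0.0785) and without Phf2 replicates 1 (0.0755), 3 (0.0781) and 4 (0.0758). The log2 fold change itself stayed between 0.22 and 0.29.

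Arnt, the shared partner, did not pass. It read 7.88, 7.71, 7.91, 7.97 and 7.91 in Phf2 replicates 1 to 5, against 7.82, 7.93, 7.94, 7.75 and 7.74 in GFP replicates 1 to 5. The groups overlapped throughout, with a log2 fold change of 0.04 (95% interval -0.11 to 0.19, adjusted p = 0.787), so that a rise as large as that of Epas1 lies outside the interval.

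**Figure D3:**
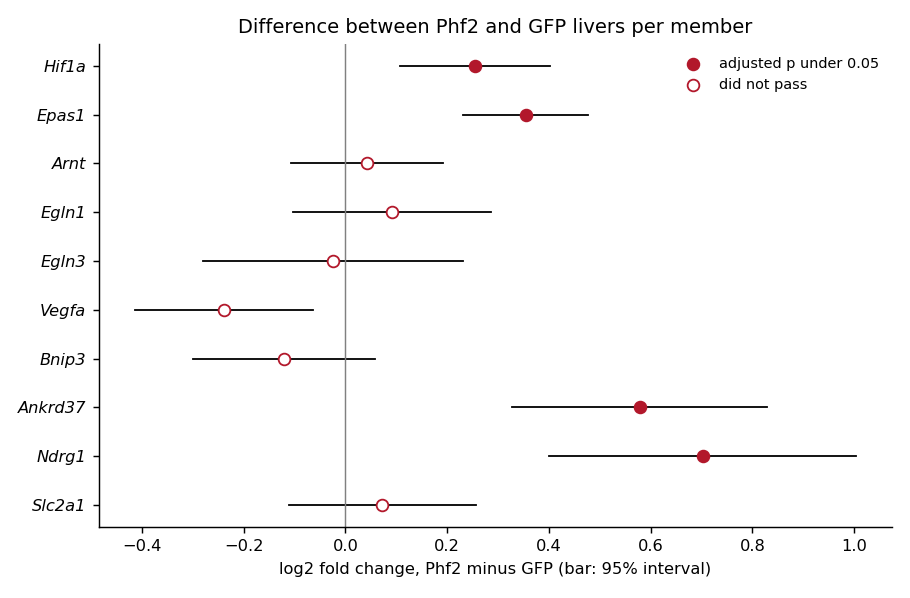
Log2 fold change (Phf2 minus GFP, horizontal axis) of the 10 genes with the 95% interval from limma. Filled points passed an adjusted p of 0.05 (Hif1a 0.25, Epas1 0.35, Ankrd37 0.58, Ndrg1 0.70), and open points did not.

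The hydroxylases that hold the α subunits down did not pass the test. Egln1, which encodes PHD2, the main oxygen sensor of most cells, read 7.06, 7.23, 7.53, 7.44 and 7.24 in Phf2 replicates 1 to 5, against 7.24, 7.11, 7.14, 7.21 and 7.34 in GFP replicates 1 to 5. The Phf2 livers were spread on both sides of the GFP livers, with a log2 fold change of 0.09 (95% interval -0.10 to 0.29, adjusted p = 0.625). Egln3, which encodes PHD3 and is itself a HIF target, read 6.98, 6.90, 7.54, 7.06 and 6.85 in Phf2 replicates 1 to 5, against 6.94, 7.12, 7.02, 7.23 and 7.15 in GFP replicates 1 to 5. Phf2 replicate 3 stood highest for both hydroxylases. Egln3 had a difference of -0.02 on the log2 scale (95% interval -0.28 to 0.23, adjusted p = 0.939), and its sign turned without GFP replicate 4 (0.01), Phf2 replicate 2 (0.02) or Phf2 replicate 5 (0.03).

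Ndrg1, a protein that cells make under hypoxia and other stress, showed the largest difference of the 10. It read 6.25, 6.75, 6.80, 6.82 and 6.09 in Phf2 replicates 1 to 5 (feature 10429140), against 5.93, 5.88, 5.90, 5.67 and 5.81 in GFP replicates 1 to 5. Phf2 replicates 2, 3 and 4 were high, and replicates 1 and 5 lay nearer to the GFP livers, although still above them. The means were 6.54 ± 0.35 in Phf2 livers and 5.84 ± 0.10 in GFP livers (SD, n = 5 each), a log2 fold change of 0.70 (standard error, SE, 0.14, 95% interval 0.40 to 1.00, adjusted p = 0.00683) or 1.63-fold. Its adjusted p passed in all 20 refits, with a highest value of 0.0428, and the log2 fold change was 0.82 without Phf2 replicate 5.

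The split of the Phf2 livers seen in Ndrg1 was also present across the whole array. On the first principal component, with 41.2% of the variance, Phf2 replicates 2, 3 and 4 lay at 19.9, 34.3 and 27.9 and Phf2 replicates 1 and 5 at 6.38 and 4.26, against -22.5 to -14.1 for the GFP arrays. The mean of the hepatocyte list was lowest in the same livers, at 12.25, 12.13 and 12.09 in Phf2 replicates 2, 3 and 4 and 12.37 and 12.40 in Phf2 replicates 1 and 5, against 12.43 to 12.55 in GFP livers. The lymphocyte list was graded rather than split. Phf2 replicates 1 to 5 had list means of 5.14, 5.33, 5.51, 5.86 and 5.24, against 4.70 to 5.01 in GFP livers. Of its 5 measured markers 3 were higher (Cd3e, Cd8a and Nkg7), where 5.43% of all genes were. The B cell genes Cd79a (log2 fold change -0.10, adjusted p = 0.681) and Ms4a1 (0.36, adjusted p = 0.299) did not pass. The mean of the acinar list was 10.73, 10.11 and 8.92 in Phf2 replicates 2, 3 and 4 and 5.88 and 6.10 in Phf2 replicates 1 and 5, against 12.29, 8.47, 7.12, 6.17 and 7.87 in GFP replicates 1 to 5. GFP replicate 1, with the highest acinar level, read 5.93 for Ndrg1, the highest of the GFP livers and below every Phf2 liver. GFP replicate 4, with the lowest acinar level of the GFP livers, also read lowest for Ndrg1 (5.67). With the acinar mean of each array as a covariate, added after the data were seen, Ndrg1 had a log2 fold change of 0.71 (adjusted p = 0.00120 from limma). Without it the log2 fold change was 0.70 (adjusted p = 0.00683 from limma). The acinar mean was 8.35 over the Phf2 arrays and 8.38 over the GFP arrays, so this covariate could hardly move the fold change. Of 7 markers of macrophages and Kupffer cells, 3 were lower in Phf2 livers, Timd4 (log2 fold change -1.59, adjusted p = 0.000252), Clec4f (-0.54, adjusted p = 0.00617) and Marco (-0.37, adjusted p = 0.0405). Among all genes 4.24% were called lower. The other 4 markers did not pass. Of these, Vsig4 lay below 0 (-0.39, adjusted p = 0.0655). Cd68 (0.41, adjusted p = 0.178), Adgre1 (0.18, adjusted p = 0.627) and Csf1r (0.15, adjusted p = 0.596) lay above 0. The mean of that list was 7.38 to 7.72 on the Phf2 arrays, against 7.59 to 8.30 on the GFP arrays. The part of acinar tissue, lymphocytes, macrophages or hepatocytes in the Ndrg1 difference was not itself tested.

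Ankrd37, an ankyrin repeat protein induced by HIF-1, read 5.99, 6.45, 6.62, 6.54 and 6.61 in Phf2 replicates 1 to 5, against 6.02, 5.86, 5.87, 5.91 and 5.66 in GFP replicates 1 to 5. Of the 5 Phf2 livers, 4 lay above every GFP liver, and Phf2 replicate 1 lay below GFP replicate 1. The difference was 0.58 in log2 units (SE 0.12, 95% interval 0.33 to 0.83, adjusted p = 0.00709), or 1.49-fold (exact two-sided permutation test, p = 0.0159). It passed in all 20 refits (adjusted p 0.000325 to 0.0396), the lowest being without Phf2 replicate 1, where the log2 fold change was 0.69.

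Vegfa, the main growth factor of blood vessels, had the lowest log2 fold change of the 10. It read 7.87, 7.93, 7.76, 7.62 and 8.08 in Phf2 replicates 1 to 5, against 8.05, 8.17, 8.06, 8.11 and 8.07 in GFP replicates 1 to 5. The GFP livers lay close together, 4 of 5 Phf2 livers were below all of them, and Phf2 replicate 5 was among them. The log2 fold change was -0.24 (standard error 0.08, 95% interval -0.41 to -0.06) with an adjusted p of 0.0885, which did not pass, and an exact two-sided permutation test gave p = 0.0317. It passed as lower without Phf2 replicate 5 (log2 fold change -0.30, adjusted p = 0.0243) and with median centring (-0.26, adjusted p = 0.0441).

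Bnip3 and Slc2a1 did not pass. Bnip3, a receptor on mitochondria that marks them for autophagy, read 9.67, 9.73, 9.77, 9.63 and 9.91 in Phf2 replicates 1 to 5, against 9.98, 10.06, 9.80, 9.78 and 9.70 in GFP replicates 1 to 5. Bnip3 differed by -0.12 on the log2 scale (95% interval -0.30 to 0.06, adjusted p = 0.451), and a further feature of the gene (10568785) gave -0.06 (adjusted p = 0.804 over all features). Slc2a1, the glucose transporter GLUT1, read 6.61, 6.72, 6.54, 6.64 and 6.52 in Phf2 replicates 1 to 5, against 6.78, 6.65, 6.41, 6.42 and 6.40 in GFP replicates 1 to 5. GFP replicate 1, the array with most acinar signal, was the highest of the 10. Slc2a1 differed by 0.07 on the log2 scale (95% interval -0.11 to 0.26, adjusted p = 0.692).

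**Figure D4:**
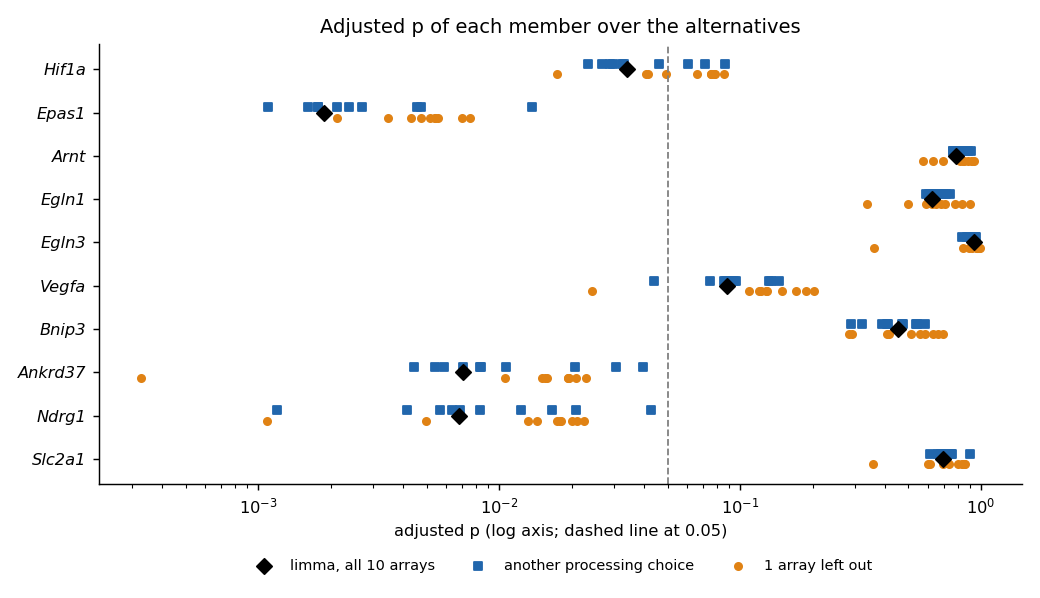
Adjusted p (horizontal log axis) of each gene with all 10 arrays (black diamonds), with other processing choices (blue squares) and with 1 array left out (orange points). Epas1, Ankrd37 and Ndrg1 stay left of the dashed line at 0.05, Hif1a runs from 0.0174 to 0.0863 and Vegfa from 0.0243 to 0.203.

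Other genes of the pathway were examined by lists. Of 14 partners in oxygen sensing, among them the ubiquitin ligase gene Vhl, the asparaginyl hydroxylase gene Hif1an and the coactivator gene Ep300, 0 passed with limma or with the methods' t-test, and 2 had an unadjusted p below 0.05. These were P4htm, a prolyl hydroxylase of the endoplasmic reticulum, with a log2 fold change of -0.27 (adjusted p = 0.154), and Cul2, the scaffold of the VHL ligase, with -0.19 (adjusted p = 0.171). The 14 values lay between -0.27 and 0.14. Of all genes tested, 5.43% were called higher and 4.24% lower, so 0 of 14 lies close to these shares.

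Of 16 measured HIF targets of glycolysis and glucose uptake, 3 were higher and 1 was lower, with a median log2 fold change of 0.09. Over all genes tested, 5.43% were called higher and 4.24% lower. Hk2, the hexokinase of muscle and growing cells, read 5.92, 6.78, 7.10, 7.12 and 5.97 in Phf2 replicates 1 to 5, against 5.03, 5.11, 5.28, 4.72 and 5.01 in GFP replicates 1 to 5, a 2.92-fold difference. Aldoa, the aldolase of muscle, read 9.01, 9.42, 9.86, 9.59 and 9.02 in Phf2 replicates 1 to 5, against 8.47, 8.25, 8.64, 8.51 and 8.65 in GFP replicates 1 to 5. For both genes Phf2 replicates 2, 3 and 4 were again the highest. Pfkl, the liver phosphofructokinase, was the third, with a log2 fold change of 0.38 (adjusted p = 0.00355), and was picked out once its value was known. Aldoc, the aldolase best known from brain, moved the other way. It read 6.93, 6.43, 6.08, 6.32 and 6.63 in Phf2 replicates 1 to 5, against 7.53, 7.79, 7.27, 7.15 and 6.92 in GFP replicates 1 to 5, a difference of -0.85 in log2 units (SE 0.17, adjusted p = 0.00813). Its groups met where Phf2 replicate 1 was level with GFP replicate 5, and the methods' t-test left it just short of the threshold (adjusted p = 0.0504). Classical hypoxia enzymes of the list did not pass, such as Pgk1 (0.09, adjusted p = 0.376), Ldha (0.14, adjusted p = 0.219) and Pdk1 (0.26, adjusted p = 0.124), which were named after their values were seen.

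Of 34 measured other hypoxia targets, 3 rose, 2 fell and 29 missed the threshold, with a median of 0.04. Among all genes tested, 5.43% were called higher and 4.24% lower. Vldlr, the receptor of very low density lipoprotein, read 6.14, 6.25, 7.15, 6.70 and 6.19 in Phf2 replicates 1 to 5, against 5.73, 5.45, 5.41, 5.49 and 5.30 in GFP replicates 1 to 5, a difference of 1.01 in log2 units (SE 0.17, adjusted p = 0.00291). Cxcr4, a chemokine receptor of leukocytes, was higher by 0.94 on the log2 scale (adjusted p = 0.00617) and was highest in Phf2 replicates 2, 3 and 4 (7.24, 7.48 and 7.74). The same livers were highest for Ndrg1, Hk2, Aldoa and the lymphocyte list and on the first principal component. The source of the Cxcr4 difference was not tested. Tfrc, the transferrin receptor, had 0.80 (adjusted p = 0.00242) and was also picked out once its value was known. It did not follow that pattern, with 8.62, 8.21, 8.33, 8.20 and 8.62 in Phf2 replicates 1 to 5, against 7.35, 7.24, 7.77, 7.75 and 7.85 in GFP replicates 1 to 5. The lower genes were Wsb1, a ubiquitin ligase adaptor (log2 fold change -0.47, adjusted p = 0.0387), and Ero1a, an oxidase of the endoplasmic reticulum (-0.28, adjusted p = 0.0495). These calls were unstable, and of 20 refits Wsb1 missed 0.05 in 10 and Ero1a in 14. Epo, the classical HIF-2α target, had -0.04 (adjusted p = 0.836), and Car9 -0.11 (adjusted p = 0.492), both named after their values were seen. Both had a low signal, with means in Phf2 and GFP livers of 3.35 and 3.38 for Epo and 4.23 and 4.34 for Car9. A change in either could therefore be missed.

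**Figure D5:**
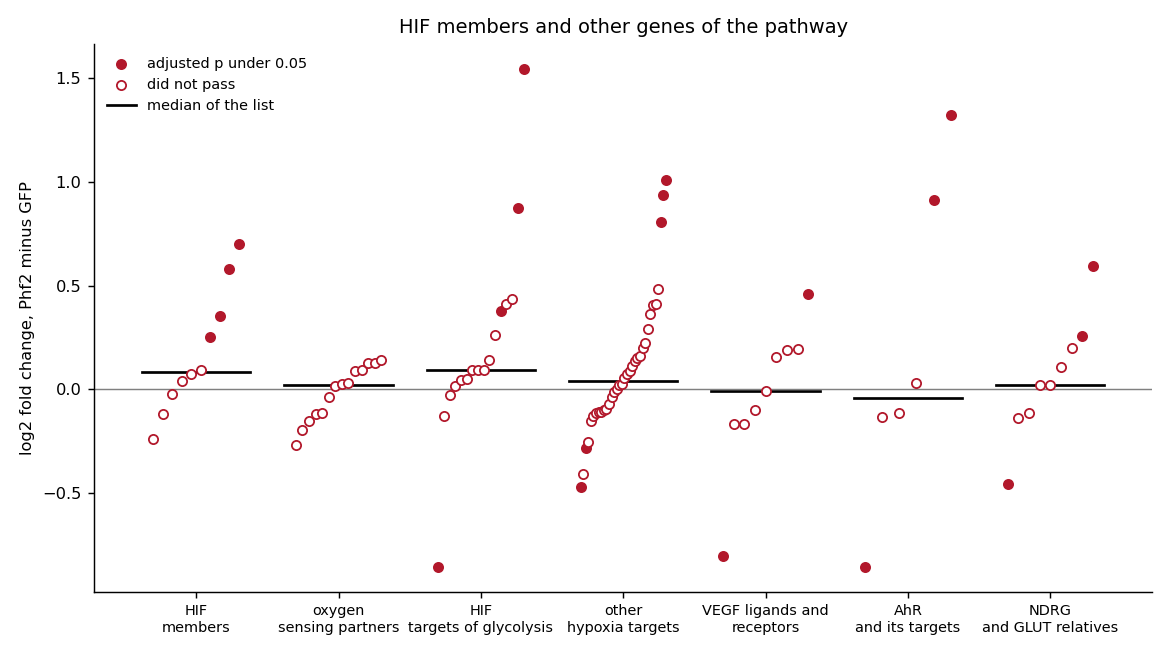
Vertical axis, log2 difference of Phf2 minus GFP means, for the 10 genes at the left and of the measured genes of 6 further lists, each point 1 gene and each black line the median of its list. Filled points passed an adjusted p of 0.05, and the partners in oxygen sensing, between -0.27 and 0.14, hold none. Of all genes tested, 5.43% passed as higher and 4.24% as lower.

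Among 9 ligands and receptors of the VEGF family other than Vegfa, 1 was higher and 1 was lower, against 5.43% and 4.24% of all genes. Nrp1, a coreceptor of VEGF, read 7.92, 7.49, 7.44, 7.43 and 7.68 in Phf2 replicates 1 to 5, against 8.40, 8.37, 8.46, 8.34 and 8.40 in GFP replicates 1 to 5. Its GFP livers were almost level and every Phf2 liver lay below them, with a mean difference of -0.80 in log2 units (SE 0.09, adjusted p = 0.000181). Vegfd, a ligand of the lymphatic receptor Flt4, had a log2 fold change of 0.46 (adjusted p = 0.0307), a call that was lost in 9 of 20 refits. The receptors Kdr (-0.17, adjusted p = 0.297) and Flt1 (-0.16, adjusted p = 0.124) did not pass, and were named after their values were seen.

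Arnt also pairs with the dioxin receptor AhR. Of 6 genes of that branch, 2 were higher and 1 was lower, against 5.43% and 4.24% of all genes. Nqo1, a quinone reductase that Nrf2 also controls, differed by 1.32 in log2 units (SE 0.20, adjusted p = 0.00128), Tiparp, an enzyme that modifies and restrains AhR, 0.91 (standard error 0.13, adjusted p = 0.000821) and Cyp1a2, a cytochrome P450, -0.86 (standard error 0.07, adjusted p = 2.41e-05). Ahr itself did not pass (-0.13, adjusted p = 0.490), nor did Ahrr (-0.12, adjusted p = 0.372) or the AhR target Cyp1a1 (0.03, adjusted p = 0.890). Cyp1a1 had a low signal, with means of 3.73 in Phf2 livers and 3.70 in GFP livers.

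Of 9 relatives of Ndrg1 and Slc2a1, 2 rose, 1 fell and 6 missed the threshold, where 5.43% of all genes rose and 4.24% fell. Ndrg2 read 11.53, 11.22, 11.24, 11.19 and 11.60 in Phf2 replicates 1 to 5, against 11.77, 11.86, 11.88, 11.79 and 11.75 in GFP replicates 1 to 5, a difference of -0.45 in log2 units (SE 0.09, adjusted p = 0.00596). Its Phf2 replicates 2, 3 and 4 were the lowest, where those of Ndrg1 were the highest. Ndrg3 had 0.26 (adjusted p = 0.0441), a call lost in 14 of 20 refits. Slc2a4, the insulin-responsive transporter GLUT4, had 0.59 (standard error 0.11, adjusted p = 0.00465), whereas Slc2a2, the main glucose transporter of hepatocytes and another choice made with its value in view, had -0.12 (adjusted p = 0.385).

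The genes whose pattern over the 10 arrays was most like that of a called member were found by the root mean square difference of log2 deviations from each gene's own mean. For Hif1a these were Slmap (0.0441) and Eif4g2 (0.0504), and for Epas1 they were Atxn10 (0.0530) and Tut4 (0.0619). Around Ankrd37 lay Hpcal1 (0.131) and the transporter Slc2a4 (0.138), and around Ndrg1 the protease inhibitor Cstb (0.0952) and the matrix protein Sparc (0.0956). Each pair of neighbours was drawn from all other genes tested, and the closeness includes the group difference itself.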

How the data were processed

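Liver RNA of 5 Phf2 and 5 GFP mice was measured with 1 Affymetrix Gene ST array per mouse. The authors deposited log2 values for 35556 features, normalized by RMA (RMA and Partek are named in the submitters' processing notes). The methods name a human array, whereas the platform annotation is that of a mouse array, and no source used here gives software versions. Samples were grouped by the condition in their titles. Of the features, 21789 carried 1 symbol (21698 matched by gene number to GRCm38.p6, used for names and promoters), 1621 several and 12146 none, and the last 2 kinds were left out. The Phf2 and GFP arrays were set against each other in limma 3.58.1 (R 4.3.3, moderated linear model without covariates), p-values were adjusted by Benjamini-Hochberg over 19938 genes, and with exact two-sided permutation tests of single values. Fold changes are Phf2 minus GFP on the log2 scale. The pipeline was tested on simulated data. The number of arrays limits the precision.

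The 10 genes, the other lists and the markers were chosen with earlier results of these data known. Named genes were the 10, from each list at most 2 called genes that rose most and 2 that fell most (where nothing was called, 2 of lowest p) and the 2 nearest patterns of each called gene. The arrays were not treated as paired by replicate number in the main fit. Alternatives tried were array weights, the methods' t-test, a robust prior with an intensity trend, leaving out features below the 25th percentile, further quantile normalization, median centring, all features, averaged features per gene, a replicate block, stricter thresholds and leaving out each array. The acinar mean as a covariate was added later.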

Additional observations from a re-analysis of the deposited data

Results flagged for a closer look

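Ankrd37 in Phf2 replicate 1 read 5.99, far below the other 4 Phf2 arrays (6.45 to 6.62), with a gap of 0.726 of the range of the group, above the limit of 0.71 for 5 samples. The 34 named genes gave 68 groups to look at, and chance alone passes about 1 in 20.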

How the results depend on the processing

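The calls of Epas1, Ankrd37 and Ndrg1 at an adjusted p of 0.05 held under every alternative run at that threshold, and that of Hif1a did not. Between 3 and 4 of the 10 genes were higher under all alternatives but the study's filter (1.5-fold, unadjusted p of 0.05), where 1 (Ndrg1) was. With these thresholds 706 of all genes passed, and 922 passed an adjusted p of 0.01, against 1929. The p-values were those of limma over the genes tested here and not of the paper's analysis of variance. The 706 is therefore not the study's own count. The count of lower genes among the 10 was 1 (Vegfa) with median centring, and 0 to 1 with arrays left out. Egln3 ran from -0.1425 to 0.0305 with arrays left out. The lower genes among the other HIF targets, 3, were 0 by the methods' t-test, 1 over all features, 1 at 1.5-fold, 1 at an adjusted p of 0.01 and 1 to 4 with arrays left out. The higher ones, 6, were 5 to 8 throughout. With the replicate block 1514 genes were called and 3 of the 10 were higher, the difference being Hif1a. Deviations of same-numbered arrays correlated at -0.29 to -0.04, which gives no sign of pairing but cannot exclude a shared batch. The causes of these shifts were not tested.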

Other observations

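Of the markers along the oxygen gradient of the lobule, the periportal ones were lower in Phf2 livers. Most pericentral ones did not pass, although the mean of their list was also lower. All 5 measured periportal markers, from the oxygen-rich end, passed as lower (Cps1, Pck1, Hal, Cyp2f2 and Cdh1), where 4.24% of all genes did. The list mean was 10.13, 9.54, 9.43, 9.44 and 9.95 in Phf2 replicates 1 to 5, against 10.50 to 10.63 in GFP livers. Phf2 replicates 2, 3 and 4, the highest for Ndrg1, were the lowest here. The largest differences were in Hal, which breaks down histidine (log2 fold change -1.59, adjusted p = 0.00224), and Pck1, of gluconeogenesis (-1.24, adjusted p = 0.00168). Of 8 pericentral markers, from the oxygen-poor end, 2 were lower, Cyp1a2 and the glutamate transporter Slc1a2 (-0.75, adjusted p = 0.000483), and 6 did not pass. Of these, the ammonium transporter gene Rhbg (0.24, adjusted p = 0.157), Axin2 (0.07, adjusted p = 0.764) and the glutamine synthetase gene Glul (0.03, adjusted p = 0.836) lay above 0. Oat (-0.51, adjusted p = 0.0735), Lgr5 (-0.14, adjusted p = 0.574) and Cyp2e1 (-0.13, adjusted p = 0.247) lay below 0. The mean of the pericentral list was 8.49 to 8.72 on the Phf2 arrays, against 8.84 to 8.94 on the GFP arrays. The part of these zones in the differences of the HIF genes was not tested.

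Alas2, the heme synthesis enzyme of red cell precursors, was the only red cell marker measured and was lower, at 7.02 to 7.68 in Phf2 livers, against 8.06 to 8.43 in GFP livers (log2 fold change -0.89, adjusted p = 0.000463).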
